A study of Mus musculus with 8 samples.

Results

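The genes described here are those of the proteasome, the barrel-shaped protease that degrades ubiquitin-tagged proteins. They were taken as every symbol of the count table beginning with Psma, Psmb, Psmc, Psmd, Psme, Psmf or Psmg followed by a digit, leaving out Psmb8, Psmb9 and Psmb10, which gave 47 genes of 23282 symbols. The 20S core is built of 2 outer rings of alpha subunits (Psma genes) and 2 inner rings of beta subunits (Psmb genes), and 3 of the beta subunits cut peptide bonds. The 19S cap, made of ATPases (Psmc genes) and non-ATPase subunits (Psmd genes), recognizes and unfolds the tagged proteins, while other activators (Psme genes) open the core without needing ubiquitin. Interferon is known to exchange the cutting beta subunits for Psmb8, Psmb9 and Psmb10 (the immunoproteasome) and to raise the PA28 activator, encoded by Psme1 and Psme2. The rule also took Psmc3ip, a meiotic recombination factor that is no proteasome subunit, and Psmb11, the cutting subunit of the thymus.

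Livers of C57BL/6 mice, labelled as male and 4 weeks old, were profiled by 3′-end RNA-seq. The control group received saline and the endotoxemic group received 25 mg/kg LPS, the bacterial outer membrane component that triggers a cytokine storm. The LGK974 group received LGK974, an inhibitor of the Porcupine enzyme that Wnt proteins need for secretion; its label names only that agent, and the study describes the sequenced group as given LGK974 at 60 mg/kg together with LPS at 25 mg/kg. Below, values given with saline, with LPS and with LGK974 are those of the first and second library of these groups, in that order. The comparisons address which proteasome transcripts differ after LPS, and whether they differ again when LGK974 is added.

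Of 8 deposited libraries, endotoxemic libraries 3 and 4 held the same counts as libraries 1 and 2, so they were counted once and each group had 2 libraries. Nothing in the labels says that the libraries of a group came from separate mice, so the p-values measure only the spread between these samples. Library totals lay between 9142116 and 15222439 counts, and 3 counts corresponded to 0.197 to 0.328 CPM, the level of a gene relative to the total counts of its library, given from here on after edgeR's TMM correction. The proteasome genes took 0.429% to 0.439% of all counts with saline, 0.553% to 0.568% with LPS and 0.589% to 0.623% with LGK974. Hepatocyte markers were abundant in every library, with summed levels of 84370 to 115200 CPM with saline, 35090 to 51270 CPM with LPS and 36230 to 39870 CPM with LGK974. Xist, expressed from the inactive X chromosome, stood at 128 to 204 CPM in the control and endotoxemic libraries and at 0.227 and 0.474 CPM in the LGK974 libraries. Ddx3y, a Y-linked gene, had no count in the control and endotoxemic libraries and stood at 133 and 94.2 CPM in the LGK974 libraries. These levels go against the male label of the control and endotoxemic libraries, and in every comparison with the LGK974 group the agent and this difference cannot be told apart. Although 579 symbols of the table stood beside rows that are not their genomic neighbours, 0 of the 47 proteasome genes did.

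LPS was accompanied by higher transcript levels of part of the proteasome: the PA28 activator genes, 4 alpha subunits, the 19S chaperone Psmd10 and the 20S chaperone Psmg4 were higher, whereas the activator Psme4 was lower. Of the 46 genes that passed the filter on low counts, 11 rose and 1 fell with LPS relative to saline (edgeR quasi-likelihood test, Benjamini-Hochberg adjusted p below 0.05). Over all 12701 genes tested, 20.4% rose and 23% fell (43.4% in all), so the share of proteasome genes that rose, 23.9%, was near that of all genes, and the share that fell, 2.17%, was smaller. Their median log2 fold change was 0.28, beside 0.01 over all genes, and 35 of the 46 were above 0. Both endotoxemic libraries lay above both control libraries for 23 of them, which also happened for 37.9% of all genes, and below for 3, beside 39.2% of all genes. The number that rose was 5 without control library 1, control library 2 or endotoxemic library 1, 6 without endotoxemic library 2, and 17 when the LGK974 libraries were left out of the fit. Psmb11, with 0 to 4 counts a library, was the gene that did not pass the filter.

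**Figure D1:**
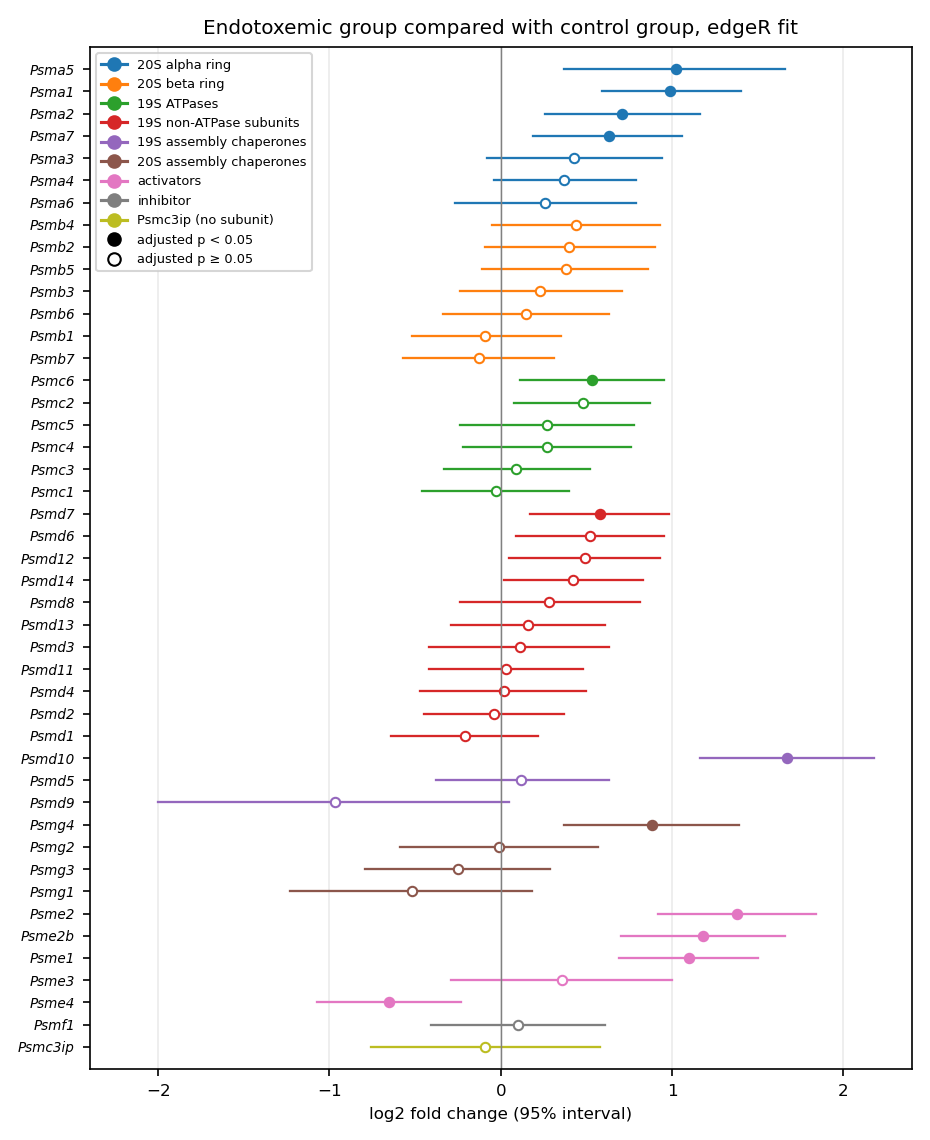
Log2 fold change (x axis) of each proteasome gene with LPS relative to saline, with its 95% interval from the edgeR fit (n = 2 libraries a group); colours mark the gene lists and filled points an adjusted p below 0.05. Psmd10 lies farthest to the right at 1.67, Psme1, Psme2 and Psme2b lie above 1, Psme4 lies below 0, and no beta ring point is filled; Psma8, with 1 to 15 counts a library, is not drawn.

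Among the activators, 3 of 5 genes rose (60%) and 1 fell (20%) after LPS, beside 20.4% and 23% of all genes. Their median log2 fold change was 1.1. Psme1, which encodes the alpha subunit of PA28, stood at 60.2 and 61.4 CPM with saline, 132 and 128 CPM with LPS and 122 and 125 CPM with LGK974. Both LPS-treated groups were thus about level with each other and well above the control group. Its log2 fold change after LPS was 1.1 ± 0.18 (SE, adjusted p = 0.00113 by edgeR). Psme2, which encodes the beta subunit of PA28, stood at 30.9 and 28.1 CPM with saline, 85.2 and 68.2 CPM with LPS and 63.9 and 61.3 CPM with LGK974. The groups did not overlap, and the log2 fold change after LPS was 1.38 ± 0.20 (SE, adjusted p = 0.000634 by edgeR).

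Psme2b rose as well, from 99.7 and 77.6 CPM with saline to 224 and 177 CPM with LPS, and stood at 140 and 144 CPM with LGK974. Its log2 fold change after LPS was 1.18 ± 0.21 (SE, adjusted p = 0.00201 by edgeR). Its transcript matches that of Psme2 in 789 of 794 aligned bases (99.4%), so reads of Psme2 and Psme2b may have been divided between both and neither value is certain on its own. Psme2b also overlaps the protein-coding genes Gm12185 and 9930111J21Rik1 on its own strand. Gm12185 stood at 0 and 0.196 CPM with saline, 12.4 and 7.46 CPM with LPS and 0.906 and 0.203 CPM with LGK974, so it was high with LPS and near the saline level with LGK974, where Psme2b was not, and 9930111J21Rik1 had at most 9 counts in a library. Their part in the Psme2b counts was not tested. The ratio of Psme2b to Psme2 counts was 3.23 and 2.76 with saline, 2.63 and 2.60 with LPS and 2.19 and 2.34 with LGK974, each group lying below the one before.

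Psme4, which encodes the PA200 activator of the nucleus, was the proteasome gene that fell. It stood at 93.9 and 87.1 CPM with saline, 58.5 and 56.9 CPM with LPS and 65.8 and 74.6 CPM with LGK974. All LPS-treated libraries lay below both control libraries, and the log2 fold change of the endotoxemic group was -0.65 ± 0.19 (SE, adjusted p = 0.0197 by edgeR). This call was lost when any of the control or endotoxemic libraries was left out. Within a library, the ratio of Psme4 to Psme1 counts went from 1.56 and 1.42 with saline to 0.442 and 0.445 with LPS and 0.541 and 0.597 with LGK974. Psme3, which encodes the PA28 gamma activator of the nucleus, stood at 27.5 and 39.0 CPM with saline, 32.3 and 53.0 CPM with LPS and 39.5 and 48.5 CPM with LGK974, with overlapping control and endotoxemic groups (log2 fold change 0.36, 95% interval -0.29 to 1.00). Psmf1, which encodes the PI31 regulator first described as an inhibitor of the core, stood at 29.1 and 35.2, 33.3 and 35.8, and 39.2 and 29.2 CPM in the control, endotoxemic and LGK974 libraries. All groups overlapped for Psmf1, and its log2 fold change after LPS was 0.10 (95% interval -0.41 to 0.61).

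The 3 immunoproteasome subunits, outside the rule, rose in the same libraries: Psmb8 by a log2 fold change of 2.70, Psmb9 by 2.75 and Psmb10 by 2.23. Set against the constitutive subunit that each replaces, the ratio of Psmb8 to Psmb5 counts rose from 0.321 and 0.298 with saline to 1.46 and 1.67 with LPS, and was 0.976 and 0.817 with LGK974. Psmb10 to Psmb7 went from 0.219 and 0.240 to 0.960 and 1.46, with 0.697 and 0.549 in the LGK974 libraries. For Psmb9 to Psmb6 the values were 0.150 and 0.148, then 1.11 and 0.694, then 0.525 and 0.0811, so the LGK974 libraries lay on both sides of the control libraries. Ratios between genes depend on the position and efficiency of each gene's 3′ reads, and are read here only between libraries.

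The summed markers of neutrophils, blood cells that express the immunoproteasome, were higher in the LPS-treated libraries than in the control libraries, as were Psme1, Psme2 and Psme2b. The summed level over the 6 markers present was 9.28 and 7.58 CPM with saline, 184 and 203 CPM with LPS and 152 and 158 CPM with LGK974. Within the endotoxemic group, library 2 had the higher sum and the lower Psme1, Psme2 and Psme2b values. Of the 6 markers, 5 rose after LPS. The exception, S100a8, stood at 4.55 and 2.22 CPM with saline, 3.49 and 3.41 CPM with LPS and 0.679 and 0.947 CPM with LGK974. The rows of S100a8 and of S100a9 and Cxcr2, which rose, were out of genomic order. Over the 3 neutrophil markers whose rows stood in genomic order, the sums were 1.76 and 2.35, 56.5 and 70.8, and 33.1 and 34.5 CPM. Macrophage and Kupffer cell markers summed to 170 and 163, 178 and 166, and 116 and 156 CPM over 7 markers, and to 105 and 107, 150 and 135, and 96.9 and 130 CPM over the 6 in genomic order. After LPS, Marco rose from 6.87 and 6.27 CPM to 96.6 and 74.5 CPM, and Vsig4, Clec4f and Csf1r fell. Csf1r was the marker of this list whose row was out of genomic order. Of 3 general leukocyte markers Ptprc and Coro1a rose, and the list summed to 21.5 and 20.8, 31.3 and 38.8, and 22.3 and 39.9 CPM. Endothelial markers, of which 1 of 5 rose (Lyve1) and 2 fell (Kdr and Clec4g), summed to 219 and 229, 400 and 396, and 429 and 548 CPM. Markers of T and NK cells and of B cells summed to at most 5.11 CPM in any library. Of the 8 hepatocyte markers, 6 fell after LPS. The part of these cell types in the proteasome values was not tested, and in bulk tissue fewer cells of a type and less RNA per cell cannot be told apart.

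Promoter sequences are shown for the genes of PA28, for Psmg4 and for Psme4, to let the letters of the elements searched be read beside the genes; they were chosen with both their values and their matches known, so the set is a description. Each runs from 250 bases before to 50 bases after the RefSeq start (GRCm38.p6, gene strand), with a match to the interferon element (GAAA, any 2 bases, GAAA) or to the antioxidant element core (TGAC, any 3 bases, GC), on either strand, in capitals. They lie at chr14:55578244-55578543 (Psme1, plus strand), chr14:55590972-55591271 (Psme2, minus strand, 1 of its 2 annotated starts), chr13:34162714-34163013 (Psmg4, plus strand) and chr11:30771525-30771824 (Psme4, plus strand).
Psme1: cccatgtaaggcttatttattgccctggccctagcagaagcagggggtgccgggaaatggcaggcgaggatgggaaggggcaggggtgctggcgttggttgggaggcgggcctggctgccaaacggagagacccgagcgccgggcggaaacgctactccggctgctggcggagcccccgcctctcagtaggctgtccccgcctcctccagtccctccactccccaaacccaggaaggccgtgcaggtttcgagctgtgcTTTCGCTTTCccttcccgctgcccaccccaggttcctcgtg
Psme2: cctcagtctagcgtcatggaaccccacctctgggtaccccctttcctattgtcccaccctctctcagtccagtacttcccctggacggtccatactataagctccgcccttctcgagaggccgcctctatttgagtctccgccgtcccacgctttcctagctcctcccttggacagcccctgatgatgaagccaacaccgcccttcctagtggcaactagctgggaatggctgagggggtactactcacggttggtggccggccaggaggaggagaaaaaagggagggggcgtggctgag
Psmg4: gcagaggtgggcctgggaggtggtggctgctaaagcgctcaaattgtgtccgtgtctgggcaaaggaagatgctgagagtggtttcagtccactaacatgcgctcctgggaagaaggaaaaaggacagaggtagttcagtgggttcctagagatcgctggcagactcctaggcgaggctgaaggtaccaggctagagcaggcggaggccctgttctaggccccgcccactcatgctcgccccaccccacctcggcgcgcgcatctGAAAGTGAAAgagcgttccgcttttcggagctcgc
Psme4: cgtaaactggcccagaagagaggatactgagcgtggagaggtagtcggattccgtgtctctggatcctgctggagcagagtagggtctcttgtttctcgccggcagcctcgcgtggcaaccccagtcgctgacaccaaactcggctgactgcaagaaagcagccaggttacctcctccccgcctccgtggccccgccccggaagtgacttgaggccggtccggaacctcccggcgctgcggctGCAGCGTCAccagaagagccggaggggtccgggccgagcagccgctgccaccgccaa

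The interferon letters begin 9 bases past the start in Psme1 and 15 bases past it in Psmg4, and the antioxidant core begins 7 bases before the start in Psme4. Windows were found for 39 of the 47 genes. The interferon letters were present in 5 of their 42 windows (11.9%), those of Psme1, Psmg4, Psmb3, Psmd4 and Psmd9, and in 3.44% of all 32851 windows. Of these 5 genes, Psme1 and Psmg4 rose after LPS, and the other three did not pass the test. Among the 10 genes with a window that rose, 2 held the letters, and Psme2 did not. The antioxidant core, a target of the transcription factors that raise proteasome genes under stress, was in 6 windows (14.3%, beside 12.4% of all), those of Psmb5, Psmb6, Psmc6, Psmd9, Psmd12 and Psme4. Windows with the letters of an NF-kB site (GGG, any 5 bases, CC) made up 57.1% of the proteasome windows and 50.8% of all. They were found for 8 of the 10 genes that rose and 14 of the 27 that were not called, a split that was not tested. The interferon-gamma site (TTC, any 3 bases, GAA) was in 4.76% and 8.30%, and CCAAT in 33.3% and 37.4%. Searches covered both strands, and a match describes letters only.

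In the alpha ring, which gates the entry of the core, 4 of 8 genes rose after LPS (50%, beside 20.4% of all genes). The median log2 fold change over the 8 was 0.67. In the beta ring, none of the 7 genes passed the test and the median was 0.23. The difference between the rings was not tested. Psma1 stood at 71.3 and 76.1 CPM with saline and 148 and 146 CPM with LPS, a log2 fold change of 0.99 ± 0.18 (SE, adjusted p = 0.00199 by edgeR). Psma5 stood at 42.1 and 34.6 CPM with saline and 89.7 and 65.3 CPM with LPS, a log2 fold change of 1.02 ± 0.29 (SE, adjusted p = 0.0183 by edgeR). Psma2 and Psma7 rose by log2 fold changes of 0.71 and 0.63, and their reads in both endotoxemic libraries (355 and 357 CPM for Psma2, 574 and 514 CPM for Psma7) lay above both control libraries (223 and 212 CPM, and 385 and 321 CPM). The calls of Psma2 and Psma7 were lost when any control or endotoxemic library was left out, that of Psma5 when either control library or endotoxemic library 1 was, and that of Psma1 in none of these. Psma3, Psma4 and Psma6 had log2 fold changes of 0.26 to 0.43 and did not pass the test. Psma8, the alpha subunit of the testis, had 1 and 5, 9 and 1, and 15 and 11 counts in the control, endotoxemic and LGK974 libraries, and its log2 fold change of 1.25 had a 95% interval of -1.36 to 3.85.

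The beta ring genes were given in every library because the immunoproteasome subunits replace 3 of them. Psmb5, the chymotrypsin-like cutting subunit, stood at 93.6 and 83.5 CPM with saline, 131 and 98.7 CPM with LPS and 131 and 161 CPM with LGK974. Psmb6, the caspase-like subunit, stood at 126 and 122 CPM, then 139 and 135 CPM, then 142 and 206 CPM in the same order. For both genes the endotoxemic libraries lay above the control libraries and below the LGK974 libraries, but the log2 fold changes after LPS, 0.38 (95% interval -0.11 to 0.86) and 0.15 (-0.34 to 0.63), did not pass the test. Psmb7, the trypsin-like subunit, stood at 163 and 148 CPM, then 158 and 125 CPM, then 191 and 201 CPM, so that the LGK974 libraries were the highest and the others overlapped.

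The structural beta subunits followed no single pattern after LPS. Psmb4 stood at 174 and 227 CPM with saline, 237 and 307 CPM with LPS and 327 and 352 CPM with LGK974, in rising order without overlap. Psmb3 stood at 46.8 and 59.0 CPM, 55.2 and 69.4 CPM, and 77.8 and 75.1 CPM, and Psmb1 at 238 and 206 CPM, 227 and 192 CPM, and 242 and 260 CPM. Control and endotoxemic libraries overlapped for both. Psmb2 stood at 24.8 and 26.1 CPM, 31.3 and 36.0 CPM, and 32.9 and 25.1 CPM. Over the 7 genes the log2 fold changes after LPS lay between -0.13 and 0.44.

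Summed over each ring, the alpha genes came to 1089 and 1023 CPM with saline, 1629 and 1579 CPM with LPS and 1670 and 1500 CPM with LGK974. The beta genes came to 866 and 873 CPM, 978 and 964 CPM, and 1144 and 1280 CPM. The ratio of alpha to beta counts was 1.26 and 1.17 with saline, 1.67 and 1.64 with LPS and 1.46 and 1.17 with LGK974. The endotoxemic libraries therefore stood highest on this ratio, and LGK974 library 2 stood at the level of the control libraries. Without Psma7, the most counted alpha gene, the ratios were 0.813 and 0.806, 1.08 and 1.11, and 0.933 and 0.718. The ratio was examined after the values of the rings were seen and was not tested.

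**Figure D2:**
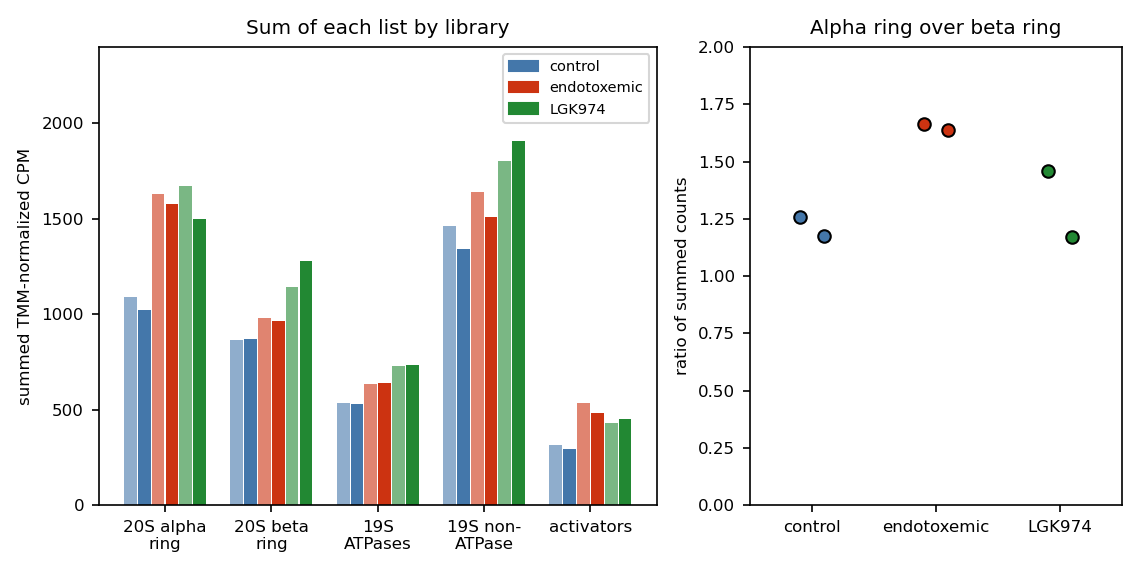
Left, summed TMM-normalized CPM (y axis) of 5 proteasome gene lists in each library, the first library of a group in the lighter shade; right, the ratio of summed alpha ring counts to summed beta ring counts in each library. The alpha ring sums of the 4 LPS-treated libraries, 1500 to 1670 CPM, lie above the control sums of 1023 and 1089 CPM, while the beta ring sums are highest in the LGK974 libraries, at 1144 and 1280 CPM.

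In the 19S cap, 1 of 6 ATPases (16.7%) and 1 of 11 non-ATPase subunits (9.09%) rose after LPS and none fell. Over all genes tested, 20.4% rose and 23% fell. Of the 32 subunits of the 20S core and 19S cap together, 18.8% rose. The ATPase Psmc6 stood at 72.4 and 67.7 CPM with saline, 108 and 94.4 CPM with LPS and 86.3 and 78.2 CPM with LGK974. The 3 groups did not overlap, and the log2 fold change after LPS was 0.53 ± 0.19 (SE, adjusted p = 0.0453 by edgeR), a call lost without any control or endotoxemic library and also without the filter on low counts. Psmd7, a scaffold partner of the deubiquitinase Psmd14, rose by 0.58 (adjusted p = 0.0272 by edgeR), lost without any control or endotoxemic library. Psmd6 and Psmc2 just missed the threshold, with log2 fold changes of 0.52 and 0.48 and adjusted p-values of 0.0506 and 0.0539 by edgeR. The ATPase list had a median of 0.27 and the non-ATPase list a median of 0.16.

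The largest rise lay among the assembly factors. Psmd10 (gankyrin), a chaperone that holds the ATPase Psmc4 during assembly of the cap and is also known as an oncoprotein of the liver, had the largest log2 fold change of all the proteasome genes after LPS. It stood at 15.6 and 14.3 CPM with saline, 41.0 and 54.2 CPM with LPS and 45.1 and 39.0 CPM with LGK974. The LPS-treated groups overlapped with each other and both lay well above the control group, with a log2 fold change after LPS of 1.67 ± 0.23 (SE, adjusted p = 0.000387 by edgeR). Psmd10 lies on the X chromosome. The Xist and Ddx3y levels given above overlapped between the control and endotoxemic libraries and did not overlap between the LGK974 libraries and either, and their part in the Psmd10 values was not tested. Psmg4, a chaperone of alpha ring assembly, stood at 20.1 and 20.0 CPM with saline, 37.0 and 36.8 CPM with LPS and 31.1 and 44.0 CPM with LGK974. Its log2 fold change after LPS was 0.88 ± 0.23 (SE, adjusted p = 0.0124 by edgeR), a call lost without any control or endotoxemic library.

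The other chaperones did not pass the test. Psmg1 stood at 15.8 and 18.3 CPM with saline, 12 and 11.7 CPM with LPS and 11 and 19.5 CPM with LGK974, a log2 fold change after LPS of -0.52 (95% interval -1.23 to 0.18). Psmd9, a chaperone of cap assembly, stood at 63.0 and 29.0 CPM, 33.7 and 13 CPM, and 38.1 and 35.5 CPM, the widest spread between libraries of a group among the assembly factors. Its log2 fold change of -0.97 had a 95% interval of -2.00 to 0.05, and it passed the test as lower without the filter on low counts. Psmd9 overlaps Hpd, a hepatocyte enzyme of tyrosine breakdown on the opposite strand, which stood at 1498 and 1863 CPM with saline, 370 and 464 CPM with LPS and 293 and 151 CPM with LGK974. Whether the counting used strand is not given in the sources used here, so reads of Psmd9 and Hpd cannot be told apart. Among the called genes, Psma2 and Psme1 also overlap other protein-coding genes, AW209491 on the same strand and Emc9 on the opposite strand, as does Psme2b.

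**Figure D3:**
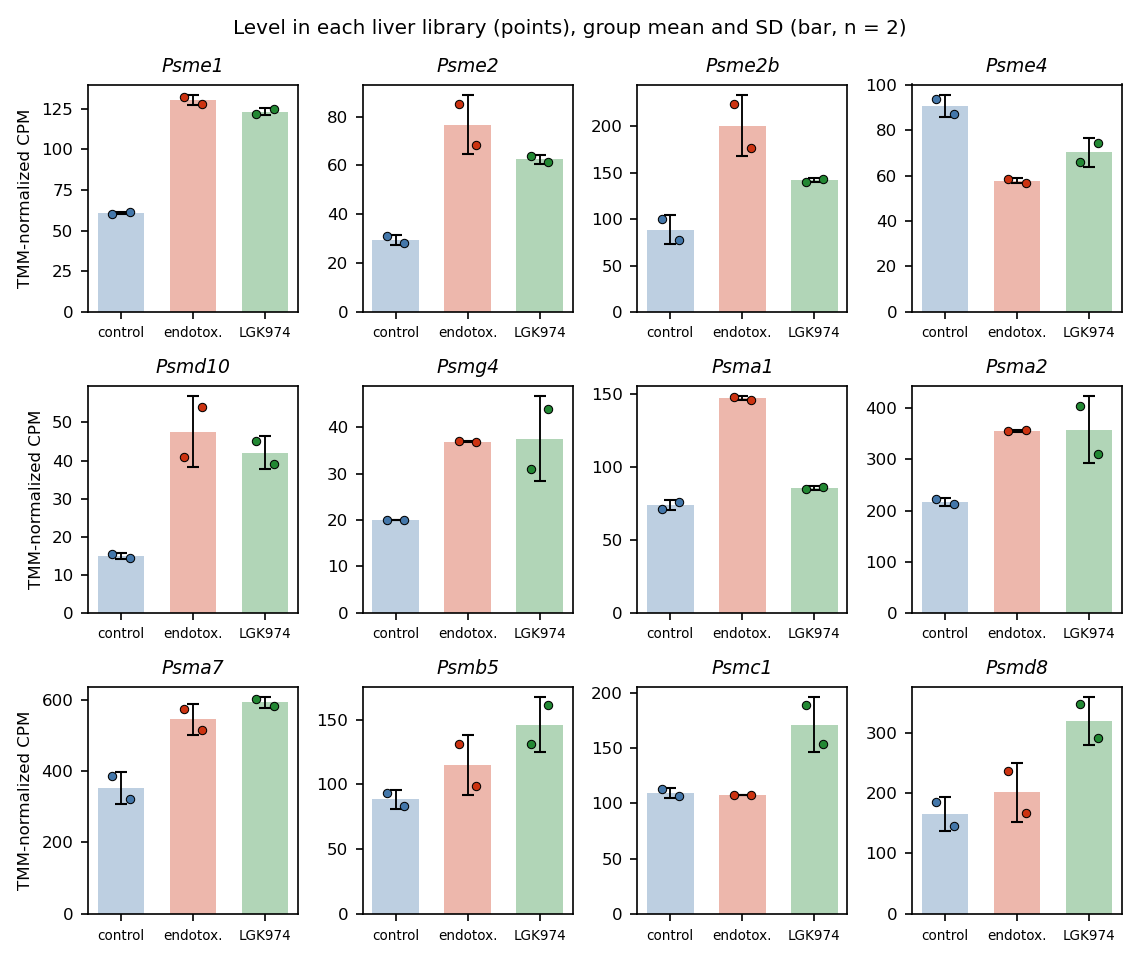
TMM-normalized CPM (y axis, from 0) of 12 proteasome genes in each library (points), with the group mean and SD (bars, n = 2), in the control, endotoxemic and LGK974 groups. The genes were chosen from those called in a comparison, Psmb5, Psmc1 and Psmd8 being called only in the LGK974 group relative to the control group. Psme1, Psmd10 and Psmg4 are high in both LPS-treated groups, Psma1 is high in the endotoxemic group and near the control level in the LGK974 group, and Psmc1 and Psmd8 are highest in the LGK974 group.

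Few genes passed the test between the LGK974 and endotoxemic groups, among the proteasome genes and among all genes alike. Relative to LPS alone, 1 of the 46 genes (2.17%), Psma1, fell and none rose by edgeR's quasi-likelihood test. Over all genes, 2.82% fell and 2.8% rose (5.62% in all). DESeq2 called 1 gene, Psmc1, higher (adjusted p = 0.0372), and 5 of the 46 had an unadjusted p below 0.05 in the edgeR fit. The median log2 fold change was 0.08, beside 0.03 over all genes. Both LGK974 libraries lay above both endotoxemic libraries for 18 of the 46, beside 26.5% of all genes, and below them for 5, beside 26% of all genes.

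Psma1, an alpha subunit, was at 84.6 and 86.2 CPM in the LGK974 libraries, below the endotoxemic libraries at 148 and 146 CPM and just above the control libraries at 71.3 and 76.1 CPM. Its log2 fold change relative to the endotoxemic group was -0.78 ± 0.18 (SE, 95% interval -1.18 to -0.38, adjusted p = 0.0386 by edgeR). That call rests on the pooled spread of the 3 groups: the adjusted p was 0.0922 when only the 2 groups compared were fitted, and between 0.106 and 0.234 without any one of the control or endotoxemic libraries. The next largest falls, Psme2b with a log2 fold change of -0.50 (adjusted p = 0.197 by edgeR) and Psmc6 with -0.30 (adjusted p = 0.376 by edgeR), did not pass the test.

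The largest positive values were those of Psma8 (0.78, from the few counts above), Psmc1, Psmd8 and Psmd9, and none passed the test. Psmc1, an ATPase at the base of the cap, stood at 113 and 107 CPM with saline, 108 and 107 CPM with LPS and 189 and 154 CPM with LGK974. Only the LGK974 group stood apart, with a log2 fold change relative to the endotoxemic group of 0.67 (95% interval 0.25 to 1.1, adjusted p = 0.0731 by edgeR). Psmd8, a non-ATPase subunit of the lid, stood at 185 and 146 CPM, 236 and 166 CPM, and 347 and 291 CPM, its log2 fold change being 0.66 (95% interval 0.14 to 1.19, adjusted p = 0.13 by edgeR) and no overlap between the LGK974 libraries and the others. In the beta ring 6 of 7 genes had a positive log2 fold change, with a median of 0.32, and in the alpha ring 4 of 8, with a median of -0.06. For PA28, the log2 fold changes of Psme1 and Psme2 were -0.08 (95% interval -0.47 to 0.32) and -0.29 (-0.74 to 0.15), so a fall of Psme1 to the control level, 1.1 lower, lay outside the interval. Psmd10 had a log2 fold change of -0.18 (95% interval -0.67 to 0.31) and Psmg4 one of 0.03 (-0.48 to 0.53).

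**Figure D4:**
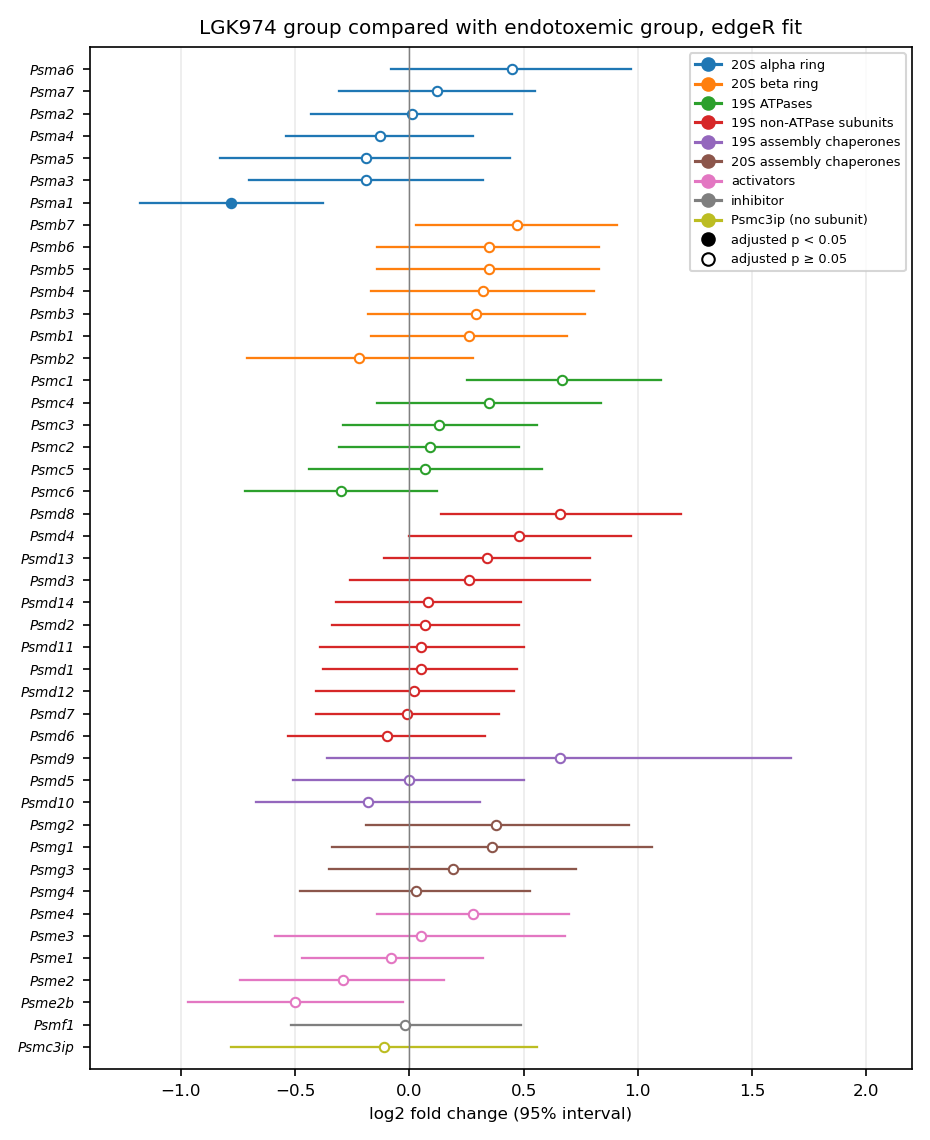
Log2 fold change (x axis) of each proteasome gene with LGK974 relative to LPS alone, with its 95% interval from the edgeR fit (n = 2 libraries a group); colours mark the gene lists and filled points an adjusted p below 0.05. Psma1 at -0.78 is the filled point, 6 of 7 beta ring points lie to the right of 0, and Psma8, with 1 to 15 counts a library, is not drawn.

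Relative to the control group, rises in the LGK974 group lay in both rings, the cap, the chaperones and the activators. There 14 of the 46 genes rose (30.4%) and none fell by edgeR, beside 16.4% of all genes that rose and 17.7% that fell (34.1% in all), and 22 had an unadjusted p below 0.05. The median log2 fold change was 0.46, beside 0.02 over all genes, and 40 of the 46 were above 0. Both LGK974 libraries lay above both control libraries for 33 of the 46, beside 33.8% of all genes, and below for 1, beside 34.3%. This comparison uses the control libraries of the comparison above, so both sets of values are given side by side and their likeness is no separate evidence. The rises were spread over the alpha ring (Psma2, Psma6, Psma7), the beta ring (Psmb4, Psmb5), the ATPases (Psmc1, Psmc2), the non-ATPase subunits (Psmd7, Psmd8), the chaperones Psmd10 and Psmg4, and the activators Psme1, Psme2 and Psme2b.

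Relative to saline, Psmd10 had log2 fold changes of 1.67 with LPS and 1.49 with LGK974. For Psme2 the values were 1.38 and 1.09, and for Psme1 they were 1.1 and 1.02. The adjusted p-values in the LGK974 group were 0.000982, 0.00311 and 0.00229 by edgeR. The number of genes that rose with LGK974 was 3 without either control library and 9 without either endotoxemic library. Psmd10, Psme1 and Psme2 kept their call in the LGK974 group without any one library, and the other 11 called genes did not. Psmd8 had 0.28 and 0.95, Psmb4 had 0.44 and 0.76, and Psmb5 had 0.38 and 0.72, each past the test in the LGK974 group and not in the endotoxemic group; the direct comparison of the LGK974 and endotoxemic groups did not pass the test for these genes. Psma1 had 0.99 and 0.21. Psme4 had -0.65 and -0.37, the lowest value of the LGK974 group, followed by Psmd9 with -0.32 and by Psmc3ip with -0.20, at 10.1 and 15.2, 10.4 and 13.5, and 11 and 11.2 CPM in the control, endotoxemic and LGK974 libraries. Psma8 reached 2.02, with a 95% interval of -0.38 to 4.43.

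Among genes that work with the proteasome, some passed the test after LPS. Of 14 partners and regulators (cap-bound deubiquitinases, the core chaperone Pomp, the transcription factor Nfe2l1 with its processing enzymes Ddi2 and Ngly1, and others), 1 rose (7.14%) and none fell after LPS, beside 20.4% and 23% of all genes, with a median log2 fold change of 0.09. That gene was Txnl1, a thioredoxin-like protein of the 19S cap, with a log2 fold change of 0.75 (adjusted p = 0.0283 by edgeR), and of 0.68 in the LGK974 group (adjusted p = 0.0493 by edgeR). Of 14 tested genes that supply ubiquitin or carry its substrates, 3 rose after LPS (21.4%), near the 20.4% of all genes. Uba6, an activating enzyme for ubiquitin, rose by a log2 fold change of 1.96, from low levels, and Nsfl1c and Ufd1l, cofactors of the unfoldase Vcp, rose by 0.55 and 0.63. Ubqln1, a shuttle factor that brings tagged proteins to the cap, fell by 0.62 on the log2 scale. Between the LGK974 and endotoxemic groups, 0 of the 14 partners and 0 of the 14 ubiquitin genes passed the test by edgeR, beside 5.62% of all genes, and none had an unadjusted p below 0.05.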

How the data were processed

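Liver RNA was made into 3′-end libraries with the Lexogen QuantSeq kit. The authors deposited whole-number read counts per gene symbol for each library; the submitters' processing notes name Bowtie2, edgeR and mm10, and the counting program, its strand setting and the annotation are not given in the sources used here. Tests used edgeR 4.0.16 under R 4.3.3 (TMM scaling, filterByExpr by group, 1 quasi-likelihood fit over the 3 groups and 6 distinct libraries, Benjamini-Hochberg adjustment over all 12701 genes tested), the common biological coefficient of variation being 0.239. The procedure was checked on simulated counts. CPM values are TMM-scaled. Totals of 9142116 to 15222439 counts set the precision. The proteasome genes and the lists were chosen with earlier results of these data known. Values were given in every library for the beta ring, the activators, the inhibitor, and the 3 largest rises and falls of each comparison. The genomic order of the rows was judged with RefSeq gene positions, and overlapping genes were taken from GENCODE M21 (mm10). Promoters came from RefSeq (GRCm38.p6). Alternatives were another filter or scaling, DESeq2 1.42.0, only the 2 groups compared, the identical libraries kept apart, the ribosomal row left out, a replicate block, other row assignments and leaving out each library. The result of 1 gene among those that supply ubiquitin or carry its substrates is not reported here.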

Additional observations from a re-analysis of the deposited data

How the results depend on the processing

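The median log2 fold change of the proteasome genes stayed above 0 in all 3 comparisons under every alternative run, while the counts of calls depended on how many libraries and groups set the spread. After LPS, 11 genes rose in the main analysis, 17 when the identical libraries were counted separately or when only the 2 groups compared were fitted, and 5 to 16 when 1 library was left out. Psma1, Psmd10, Psme1, Psme2 and Psme2b kept this call under all 17 alternatives. Those that fell numbered 1, then 2 without the filter on low counts or with the replicate block (Psmd9 being the second), and 0 to 2 with 1 library left out. The median of 0.28 ranged from 0.26 to 0.39 with 1 library left out. Relative to LPS alone, the genes that rose with LGK974 numbered 0, then 1 with DESeq2, 4 with the identical libraries counted separately, and 0 to 2 with 1 library left out: Psmb6 and Psmd4 without LGK974 library 1, Psmc1 and Psmd8 without LGK974 library 2. Those that fell numbered 1, then 2 with the identical libraries counted separately, 0 with only the 2 groups fitted, and 0 to 1 with 1 library left out, and the median of 0.08 then ranged from 0.06 to 0.19 (0.05 with library totals alone). Relative to saline, 14 rose with LGK974, 23 with the identical libraries counted separately, and 3 to 18 with 1 library left out, the fewest without either control library. None fell, except 1 with the identical libraries counted separately, and the median of 0.46 ranged from 0.32 to 0.49. Fits without a library hold fewer samples; the cause of the other changes was not tested. Deviations of same-numbered libraries from their group means correlated at 0.14, 0.061 and -0.007 in the 3 comparisons. With 2 libraries a group, these values cannot show whether the samples were paired. With the replicate block no other count moved by over 1.5 times. Scaling by library totals alone, chosen after seeing the data, shifted the median of all genes by less than 0.1. Genes of low level, such as Psma8 (group means of 0.21 to 0.94 CPM) and Psmb11 (0.0533 to 0.21 CPM), were limited by depth.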
